A study of Saccharomyces cerevisiae with 13 samples.

Results

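The 10 genes described here encode enzymes of glycolysis and of the step from acetaldehyde to ethanol in *Saccharomyces cerevisiae*. They were taken by systematic name from the 6326 genes of the deposited tables: *TDH3* (YGR192C), *TDH2* (YJR009C), *PGK1* (YCR012W), *ENO1* (YGR254W), *ENO2* (YHR174W), *FBA1* (YKL060C), *CDC19* (YAL038W), *TPI1* (YDR050C), *ADH1* (YOL086C) and *GPM1* (YKL152C). All 10 had values in every library. Chromatin came from asynchronous *rtt109Δ* cells of the W303 background, which lack the acetyltransferase that modifies lysine 56 of histone H3, and the strain also carries a thymidine kinase and a nucleoside transporter that let it take up EdU. Newly replicated DNA was labelled with EdU for 5 min, chased with thymidine for 5 min, digested with MNase and captured strand by strand (nascent chromatin, by the method named NChAP). Replicate 1 was sampled 0, 2, 4, 6, 8 and 15 min after the thymidine incubation and replicate 2 after 2, 4, 6, 8, 15 and 25 min, which gave 12 nascent libraries. A single library of total chromatin digested with MNase, called bulk chromatin, came from the same mutant. Titles of the time course call its DNA input while other labels and the strand separation describe nascent DNA, and the libraries are called nascent here. All cells thus shared the *rtt109* deletion, and no library of a strain with *RTT109* is described here.

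Glycolysis splits glucose into pyruvate, and yeast on glucose sends most of that pyruvate on to ethanol. The genes of this pathway are among the most heavily transcribed in growing yeast, and the activators Gcr1, Gcr2, Rap1 and Tye7 are known to act at their promoters. When a replication fork passes, nucleosomes are taken off ahead of it and put back on both daughter strands, partly with old and partly with new histones. In yeast the new histone H3 carries acetylated lysine 56 until after S phase, and this mark needs Rtt109. MNase spares the DNA wrapped in a nucleosome, so the signal described below is high over nucleosomes and low where DNA is open.

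The deposited signal is coverage in 20 bp bins around the transcription start site (TSS), relative to the mean of the library, so that 1 is the average of that library. Within a library the values came in equal steps, all of them whole multiples to within 0.001 of a step or of their own size, whichever is larger. With a step taken as 1 read this gave a depth of 2.57 to 78.1 reads per bin over both strands, the lowest at 0 and 4 min of replicate 1 (2.57 and 4.94 reads per bin). Over 0 to 1000 bp the bodies of the 10 genes held 23 to 6690 reads per library, and their promoter windows 0 to 1579. The signal over *RTT109* was between 0.0230 and 0.0675 in the nascent libraries of replicate 1, was listed at 0 in all of replicate 2 together with the rest of chromosome 12, and was 0.0632 in bulk. *CHD1*, which a label of the samples names as deleted, had a signal of 0.788 to 1.15 in all 13 libraries. None of the 10 genes lies on chromosome 12. The 25 min library stood apart from the others in its promoters and is given separately.

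All 10 genes are classed as SAGA-dominated in the tables, as are 8.36% of the 5660 genes with values in all libraries up to 15 min. 9 of the 10 lie in the top 10% of genes by the RNA polymerase II occupancy listed there (unit not given), between 1.499 for *TDH2* and 2.40 for *GPM1*. The exception is *ENO1*, at 0.135, the enolase gene that yeast represses on glucose and the partner of *ENO2*, which glucose induces. Their listed replication times ran from 27.4 min for *ADH1* to 56.6 min for *GPM1*, and 9 of 10 were earlier than the median of the other genes (47.03 min).

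The sequences upstream of the genes are given as background, and they were not aligned with the bins of the promoter signal below. The 250 bases that begin 350 bases before the start codon were taken from the RefSeq genome, assembly R64, whose coordinates are separate from those of the deposited tables. Capitals mark matches on either strand to TATAAA, the core of a TATA box, and to CTTCC, the core bound by Gcr1. Each runs 5′ to 3′ on the gene's strand, at chrVII:883911-884160 (minus strand), chrXV:160695-160944 (minus strand), chrVIII:450977-451226 (plus strand) and chrXI:327588-327837 (minus strand).
TDH3: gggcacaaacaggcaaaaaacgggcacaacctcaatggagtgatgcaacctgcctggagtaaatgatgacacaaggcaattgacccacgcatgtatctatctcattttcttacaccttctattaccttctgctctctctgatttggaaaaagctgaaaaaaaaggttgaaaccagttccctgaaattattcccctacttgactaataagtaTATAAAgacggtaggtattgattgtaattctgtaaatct
ADH1: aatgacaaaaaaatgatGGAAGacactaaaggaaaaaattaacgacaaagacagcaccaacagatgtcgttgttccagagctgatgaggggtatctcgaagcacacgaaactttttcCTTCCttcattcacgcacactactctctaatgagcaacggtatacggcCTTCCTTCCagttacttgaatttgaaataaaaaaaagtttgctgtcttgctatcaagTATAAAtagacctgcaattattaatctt
ENO2: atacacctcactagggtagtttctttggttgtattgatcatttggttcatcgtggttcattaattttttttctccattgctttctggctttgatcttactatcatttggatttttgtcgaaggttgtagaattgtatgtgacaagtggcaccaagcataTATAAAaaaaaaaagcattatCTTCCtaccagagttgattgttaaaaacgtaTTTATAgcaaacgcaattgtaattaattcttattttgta
FBA1: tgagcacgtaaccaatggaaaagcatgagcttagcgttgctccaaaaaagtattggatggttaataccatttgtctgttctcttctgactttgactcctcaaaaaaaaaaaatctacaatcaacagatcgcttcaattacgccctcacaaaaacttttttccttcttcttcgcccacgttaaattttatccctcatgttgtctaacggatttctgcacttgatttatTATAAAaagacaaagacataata
TATAAA occurred in 9 of the 10 stretches, all but that of *GPM1*, and in 39.6% of the 6001 stretches of the same length and position before all protein-coding genes. CTTCC occurred in 5 of 10 and in 40.3% of all. *ADH1* held 4 matches to CTTCC, with a pair of them sharing a base, and *CDC19* held 3. The nearest gene upstream was between 173 bases (YHR173C, before *ENO2*) and 2260 bases away (*CYC3*, before *CDC19*).

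Some coding sequences are close to those of a partner, which limits what short reads can tell apart. *TDH3* and *TDH2*, isozymes of glyceraldehyde-3-phosphate dehydrogenase, were identical at 957 of 999 bases (95.8%) and *ENO1* and *ENO2* at 94.8%. Outside the 10 genes, *TDH1* was identical to *TDH2* at 90.2% and to *TDH3* at 88.9%, and *ADH2* to *ADH1* at 88.8%. The longest stretch shared without a mismatch by *TDH3* and *TDH2* ran from base 355 to base 527 of the coding sequence, on chromosome VII in *TDH3*, and is printed to show its length.
TDH3 and TDH2: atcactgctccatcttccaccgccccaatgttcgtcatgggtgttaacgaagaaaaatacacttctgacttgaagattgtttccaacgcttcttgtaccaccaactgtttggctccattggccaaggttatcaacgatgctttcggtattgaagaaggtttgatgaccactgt
In the tables, bins with the letter R in place of a number occurred in 5 of the 10 genes: 12 of the bins downstream of the TSS in *TDH3*, 6 in *TDH2*, 8 in *ENO1*, 9 in *ENO2* and 5 in *ADH1*. In R64 between 18.8% and 51.96% of the 30-base words of these 5 coding sequences occur more than once in the nuclear genome, against 0% in *PGK1*, *FBA1*, *CDC19*, *TPI1* and *GPM1*. The meaning of R is not stated, such bins were left out, and reads near them may still be shared between the partners.

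The first comparison was of nascent with bulk chromatin over the gene bodies, 0 to 1000 bp from the TSS. The coding sequences of *TPI1* (747 bases) and *GPM1* (744 bases) are shorter than this window, which may reach past their ends. From 750 to 1000 bp the nascent mean was 0.466 in *TPI1*, against 0.483 in bulk, and 0.787 in *GPM1*, against 0.883 in bulk. In nascent chromatin at 0 to 15 min the bodies of 8 of the 10 genes had less signal than in bulk chromatin, in each of the 11 libraries: *TDH3*, *TDH2*, *ENO2*, *FBA1*, *CDC19*, *TPI1*, *ADH1* and *GPM1*. Bulk lay below all 11 in 0 of the 10 genes, against 6.91% of genes. The bulk value lay above all 11 nascent values in 15.4% of the 5660 genes with values, in 13.6% of the other genes in the top 10% by polymerase occupancy and in 10.6% of 113 ribosomal protein genes. The mean nascent signal over the bulk signal had a median of 0.589 over the 10 genes, against 0.954 over the other genes. Bulk chromatin was a single library, so that this comparison has no test. The count rests on the window and on empty bins: with the body taken as 0 to 500 bp it was 5 of 10 (*ENO2*, *FBA1*, *CDC19*, *ADH1* and *GPM1*), against 17.7% of genes, and with bins at 0 taken as missing it was 3 of 10 (*ENO2*, *FBA1* and *TPI1*), against 7.39% of genes.

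*ENO2*, one of the enolase genes, was the lowest in nascent chromatin relative to bulk. Its body signal was 0.219 at the lowest, 0.488 at the median and 0.734 at the highest of the 11 nascent libraries, against 1.08 in bulk. For *TDH3*, the main glyceraldehyde-3-phosphate dehydrogenase gene, these were 0.292, 0.426 and 0.874 in nascent chromatin, against 1.04 in bulk. *ADH1*, the alcohol dehydrogenase that makes ethanol, had 0.311, 0.507 and 0.667 in nascent chromatin, against 1.05 in bulk. In these genes the nascent mean was below 0.5 times the bulk value, a ratio that fewer than 1% of the genes went under (0.283% for *ENO2*, 0.424% for *TDH3* and 0.495% for *ADH1*).

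*FBA1*, the aldolase gene, had 0.600, 0.725 and 0.859 as its lowest, median and highest nascent signal, against 1.33 in bulk. *TDH2* had 0.430, 0.585 and 0.801 in nascent chromatin, against 1.08 in bulk. *CDC19*, which encodes the main pyruvate kinase, had 0.449, 0.816 and 1.12, against 1.24 in bulk. In *FBA1* and *TDH2* the groups were well apart, while in *CDC19* the 0 min library came close to bulk. *GPM1*, the phosphoglycerate mutase gene, had 0.731, 0.880 and 1.08 in nascent chromatin, against 1.26 in bulk. *TPI1*, the triosephosphate isomerase gene, had 0.351, 0.856 and 1.12, against 1.14 in bulk. The highest *TPI1* values were those of 8 and 15 min in replicate 2 (1.10 and 1.12), just under bulk.

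Both remaining genes overlapped with bulk. *PGK1*, the phosphoglycerate kinase gene, had 1.16, 1.505 and 1.71 as its lowest, median and highest nascent signal, against 1.28 in bulk, with most nascent libraries above bulk. *ENO1* had 0.310, 0.504 and 0.602, against 0.561 in bulk, which was the lowest bulk value of the 10 genes.

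**Figure D1:**
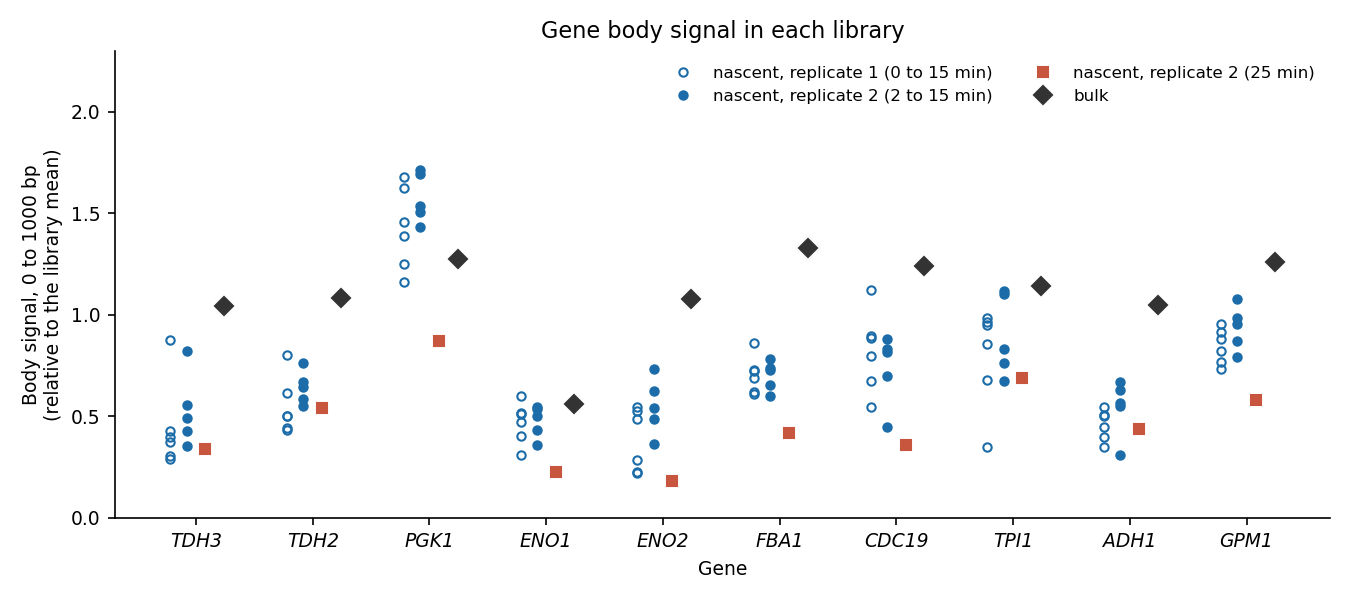
Mean signal from 0 to 1000 bp (y axis, relative to the library mean) of each of the 10 genes (x axis) in nascent libraries up to 15 min of replicate 1 (open circles) and replicate 2 (filled circles), in the 25 min library (squares) and in bulk chromatin (diamonds). Bulk lies above all nascent values in 8 genes, while *PGK1* (bulk 1.28) and *ENO1* (bulk 0.561) overlap.

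Across single bins the same order held. Of the 451 bins with values from 0 to 1000 bp in the 10 genes, bulk was above all 11 nascent libraries in 37.03%, against 10.0% of the bins of other genes and 8.89% of those of the top 10% by polymerase occupancy. It was below all 11 in 1.11% of the bins, against 5.95% in other genes. *FBA1* had 32 such higher bins of 50, *ENO2* 27 of 41 and *ADH1* 26 of 45, whereas *PGK1* had none of 50 and 5 bins with bulk below. The highest nascent mean of a body bin of *FBA1* was 1.02, at 130 bp, against a highest bulk bin of 2.41 at 190 bp. Bins of a gene come from the same libraries and are no replicates.

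**Figure D2:**
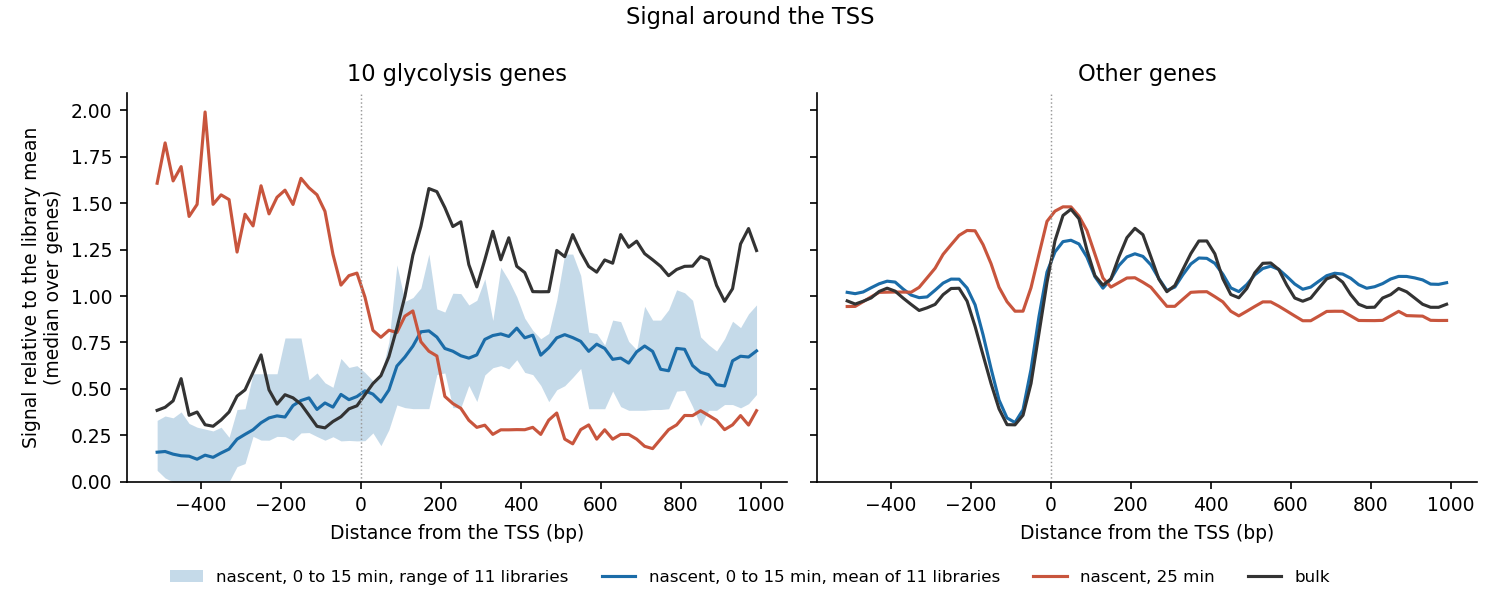
Median signal over genes (y axis, relative to the library mean) by distance from the TSS (x axis, bp) for the 10 glycolysis genes on the left and the other genes on the right. The blue line is the mean of the 11 nascent libraries up to 15 min and the band the range of their medians, red is the 25 min library and black is bulk. Over the bodies of the glycolysis genes the nascent line lies under bulk, and upstream the 25 min library lies above both.

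Nascent signal also depends on when and where a region was copied, so each gene was set beside the nearest 6 genes on its chromosome, a description chosen after the values had been seen. The nascent over bulk ratio of each of the 10 genes was below the median of its nearest 6, as it was in 49.8% of all genes. The difference had a median of -0.54 on the log2 scale over the 10 genes and 0.00 over all genes. On that scale it was largest for *TDH3* (-0.88), *ENO2* (-0.85) and *FBA1* (-0.81) and smallest for *TPI1* (-0.14) and *CDC19* (-0.17), which 26.3% and 23.2% of genes went below. *PGK1* had a ratio of 1.17, yet its nearest genes on chromosome 3 had a median of 1.59 and reached 2.42. *ENO1* had 0.842, against 1.05 in its surroundings. In *TDH3*, *TDH2*, *ENO1*, *ENO2*, *FBA1* and *ADH1* the ratio was below each of the 6 neighbours, which was not counted over all genes. Between 0.442% (*TDH3*) and 9.49% (*ENO1*) of genes went below the log2 differences of these genes. The same median was 0.03 in the top 10% of genes by polymerase occupancy and 0.05 in ribosomal protein genes. Of 15 other genes of glycolysis and fermentation, described below, 9 lay below the median of their nearest 6. Furthest below were *HXK1* (-0.51), *GLK1* (-0.49), *PGI1* (-0.45) and *HXK2* (-0.37), and furthest above was *PFK1* (0.44). The part of replication time in the remaining difference was not tested.

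**Figure D3:**
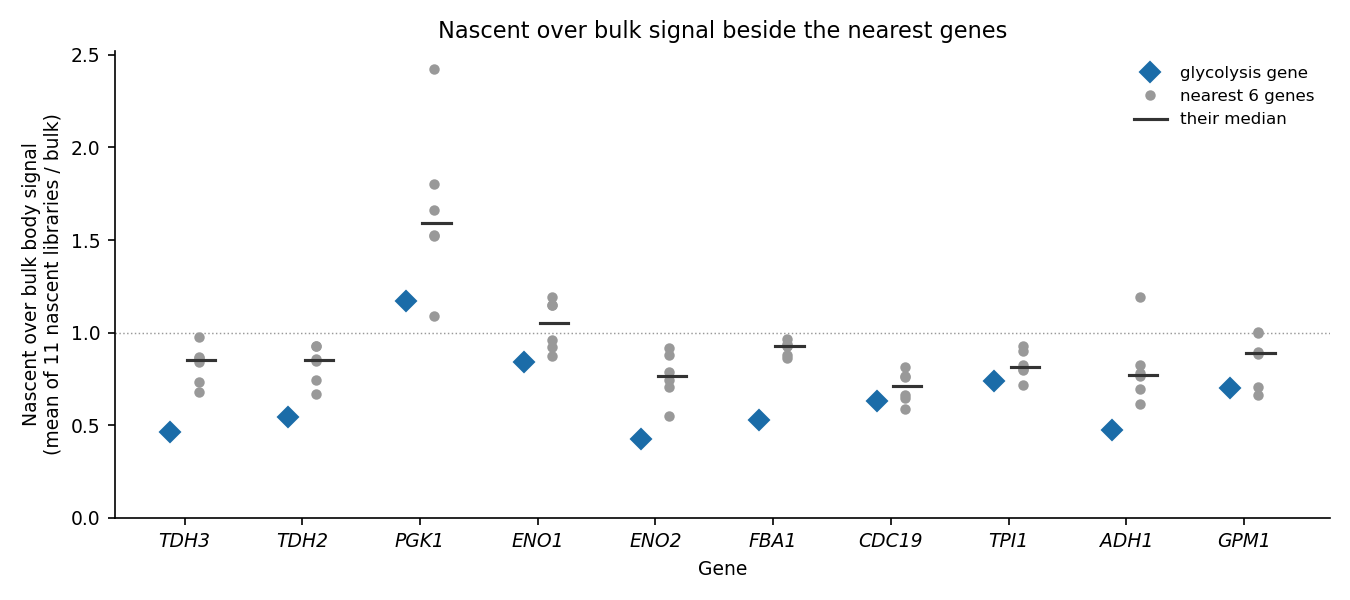
Mean of the 11 nascent libraries up to 15 min over bulk, for body signal (y axis, ratio), of each glycolysis gene (diamonds) and its nearest 6 genes on the chromosome (circles, with their median as a bar), by gene (x axis). Each diamond lies below the bar beside it, with the smallest gaps in *TPI1* and *CDC19*.

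The signal before the TSS was low over a long stretch in most of these genes. In 8 of the 10 the mean signal from -500 to -300 bp was below the median of other genes in every library up to 15 min. The share of all genes that did the same was not counted. In the mean of the 11 nascent libraries the median over the 10 genes was 0.198, against 1.05 over other genes. It was 0.800 in the top 10% by polymerase occupancy and 0.633 in ribosomal protein genes. *FBA1* had a mean of 0.0759 ± 0.0875 (SD, n = 11 nascent libraries) there, against 0.256 in bulk, and *ENO1* had 0.0662 ± 0.0427, against 0.210 in bulk. *PGK1* had 0.139 ± 0.0929, against 0.285 in bulk, and *CDC19* 0.179 ± 0.0739, against 0.605 in bulk. Both exceptions were *TDH2* (1.37 ± 0.256, against 1.35 in bulk) and *ADH1* (2.24 ± 0.309, against 4.77 in bulk). Of the 25 bins from -500 to 0 bp, a median of 19.5 were under 0.5 in the nascent mean over the 10 genes, against 6 over other genes and 17 over ribosomal protein genes. In *FBA1* and *ENO2* all 25 bins were under 0.5 in the nascent mean and in bulk. Nascent signal was also below bulk upstream. From -500 to -300 bp the nascent mean over bulk had a median of 0.420 over the 10 genes, against 0.955 over other genes. From -500 to 0 bp bulk was above all 11 nascent libraries in 26.8% of bins. This was 12.1% in other genes, 15.3% in the top 10% by polymerase occupancy and 23.9% in ribosomal protein genes.

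The promoter ratio, the mean signal in the bins centred from -150 to -10 bp over the body signal, did not set nascent apart from bulk in the same way. Bulk lay above all 11 nascent libraries in none of the 10 genes, against 7.9% of genes, and below all 11 in *ADH1* alone, against 6.27% of genes. The median over the 10 genes was 0.562 in the mean of the nascent libraries and 0.328 in bulk, against 0.580 and 0.568 over other genes. Against the 5 libraries of replicate 2 alone, bulk lay below all in 4 genes (*PGK1*, *ENO2*, *CDC19* and *ADH1*), against 21.3% of genes, and above all in *GPM1*, against 19.6%. *ENO2* had ratios of 0, 0.426 and 1.25 as its lowest, median and highest nascent value, against 0.194 in bulk, and *CDC19* had 0.238, 0.651 and 0.807, against 0.2402 in bulk. These ratios carry the lower nascent bodies in their denominator. The promoter signal itself was 0.241 ± 0.115 (SD, n = 11) in nascent chromatin and 0.209 in bulk for *ENO2*, and 0.331 ± 0.1197 in nascent chromatin and 0.339 in bulk for *FBA1*.

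*TDH3* and *ADH1* had promoters unlike the rest, with more signal before the TSS than over the body. The promoter ratio of *ADH1* lay between 3.04 and 5.15 in the 11 nascent libraries and was 2.38 in bulk, and that of *TDH3* lay between 0.860 and 3.49 and was 2.01 in bulk. In the other 8 genes it stayed at or under 1.25 in the nascent libraries, apart from *TPI1* at 0 min (3.09, in the shallowest library). From -500 to 0 bp over the body, *ADH1* averaged 4.77 ± 0.992 (SD, n = 11) in nascent chromatin, against 3.57 in bulk, and *TDH3* 1.61 ± 0.414, against 1.85 in bulk. *TDH2* was next, at 1.36 ± 0.182, against 0.733 in bulk, and the others averaged 0.232 to 0.616 in nascent chromatin. The strain list of the study places the transporter behind an ADH promoter and several copies of the kinase behind a promoter written GDP, and the *TDH3* promoter is commonly called GPD. Reads of the genes' own promoters and of such inserted copies cannot be told apart here. In *TDH3* the bulk signal was 2.66 from -350 to -200 bp and 0.373 from -500 to -350 bp, and in *ADH1* it was 6.69 from -500 to -350 bp.

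The second comparison was of late (8 and 15 min) with early (2 and 4 min) nascent libraries, 4 each, and asks whether these genes change in the minutes after replication. By limma with Benjamini-Hochberg adjustment over all genes, 0 of the 10 genes passed an adjusted p of 0.05 for the promoter ratio, against 0.0706% of 5665 genes, and 1 of 10 had an unadjusted p below 0.05, as did 453 of the 5665. For the body signal 0 of 10 passed, against 1.67% of 5678 genes, with 3 of 10 at an unadjusted p below 0.05, as were 1018 of the 5678. For the contrast between nucleosomes and linkers 0 of 10 passed, against 0.018% of 5552 genes, with 1 of 10 at an unadjusted p below 0.05, as were 447 of the 5552. A p that misses the threshold does not show that the values were the same. The methods call the replicates biological, but the libraries of a replicate are aliquots of 1 time course, so that the 4 libraries of a group are not separate cultures and p-values measure the spread between these libraries.

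The promoter ratio was lower in late libraries in 8 of the 10 genes, with a median log2 change of -0.49, against -0.02 over all genes. This median was -0.17 without replicate 1, -0.14 with a pseudocount of 1, -0.11 at 15 against 2 min and 0.06 with 8 to 25 against 0 to 4 min. *TDH3* had the largest estimate in the comparison of 8 and 15 with 2 and 4 min over both replicates. Its ratio was 0.860 at 8 min and 1.00 at 15 min in replicate 1 and 1.14 and 2.40 in replicate 2, against 3.49 at 2 min and 3.45 at 4 min in replicate 1 and 2.06 and 2.52 in replicate 2. The groups overlapped, as 15 min of replicate 2 lay above 2 min of that replicate. The log2 change was -1.11 (SE 0.32, limma adjusted p = 0.430). It was -0.43 without replicate 1, where *FBA1* (-1.004), *TPI1* (-0.75) and *CDC19* (-0.58) lay further from 0, and -1.79 without replicate 2. At 15 against 2 min it was -0.74, where *TDH2* (-1.17) and *ENO2* (-0.87) lay further from 0. With 8 to 25 against 0 to 4 min it was -0.33, where *ENO1* (1.46) lay furthest from 0. In the absolute promoter signal of *TDH3* the late mean was 0.815 ± 0.786 (SD, n = 4), against 1.07 ± 0.257 early. The next estimates were those of *ENO2* (-0.62), *TPI1* (-0.58), *CDC19* (-0.55) and *FBA1* (-0.53), each with an SE of 0.31 to 0.36. These ratios also move with the body signal, their denominator. The promoter signal itself was 0.290 ± 0.123 late and 0.276 ± 0.0563 early in *ENO2* (SD, n = 4 each). It was 0.405 ± 0.223 and 0.482 ± 0.212 in *TPI1*, 0.317 ± 0.129 and 0.524 ± 0.0796 in *CDC19*, and 0.284 ± 0.178 and 0.368 ± 0.105 in *FBA1*. *ENO1* had the largest positive estimate, 0.72 with an SE of 0.65, and its ratio was 0 at 4 min of replicate 1, where its promoter window held no read. *ADH1* had 4.29 ± 0.155 late and 4.11 ± 0.701 early (SD, n = 4 each).

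**Figure D4:**
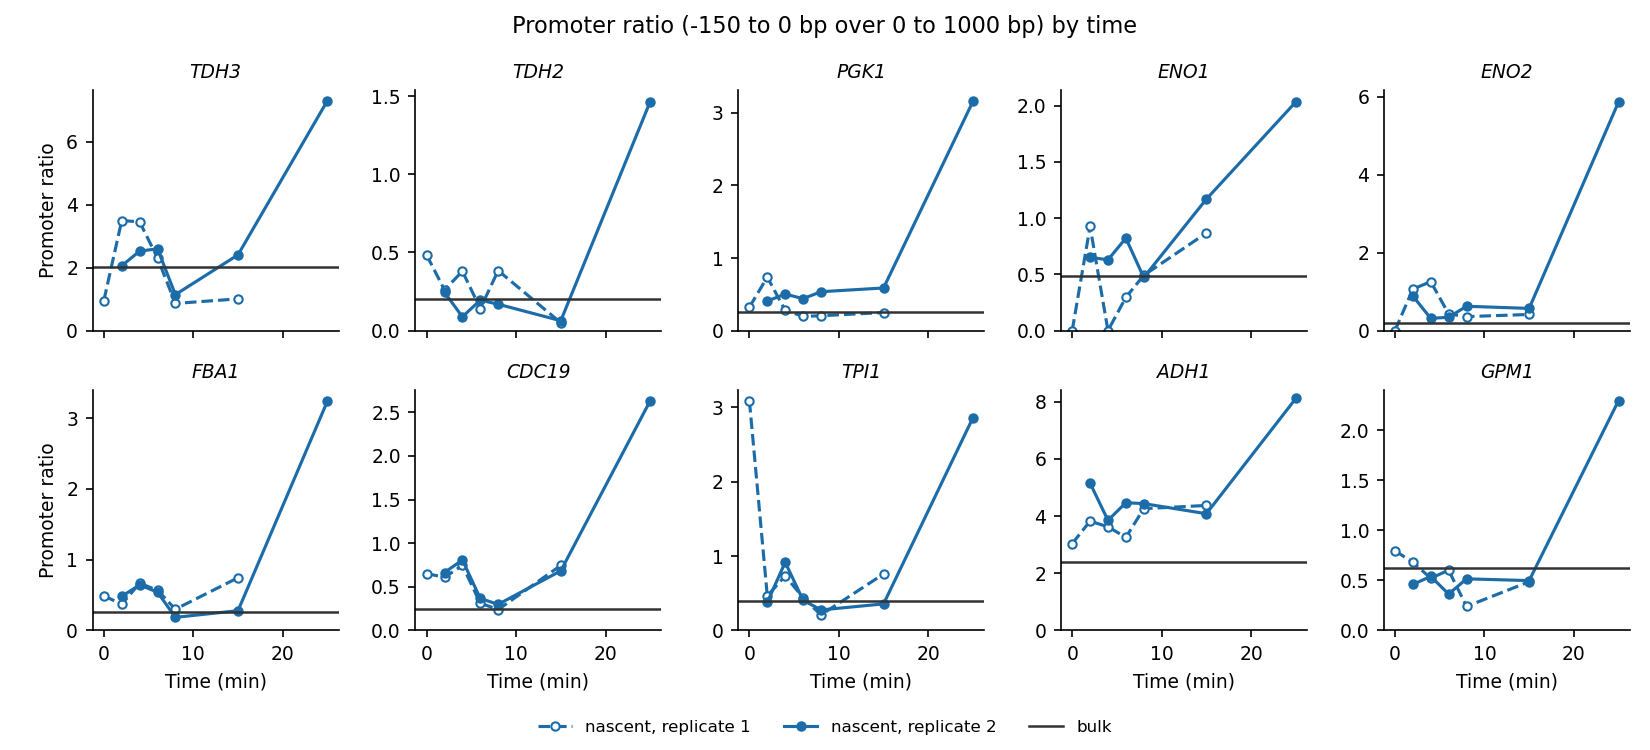
Promoter ratio (y axis, signal from -150 to 0 bp over 0 to 1000 bp) of each gene by time after the thymidine incubation (x axis, min) in replicate 1 (open circles, dashed) and replicate 2 (filled circles), with bulk as a horizontal line. The 25 min library is above all other libraries in 9 of the 10 panels, and in *TPI1* the 0 min value of 3.09 is higher.

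The body signal was higher in late libraries in 7 of the 10 genes, with a median log2 change of 0.22, against 0.01 over all genes. This median was 0.14 without 15 min of replicate 2, 0.11 with a pseudocount of 1, 0.078 with a body of 500 bp and 0.019 with 8 to 25 against 0 to 4 min. *ENO2* had 0.545 and 0.485 at 8 and 15 min in replicate 1 and 0.734 and 0.540 in replicate 2, against 0.282 and 0.228 at 2 and 4 min in replicate 1 and 0.365 and 0.624 in replicate 2. Its late values were above all early values but the 4 min value of replicate 2, and the log2 change was 0.56 (SE 0.21, limma adjusted p = 0.153). Without that 4 min library the adjusted p of *ENO2* was 0.0301 and 1 of the 10 genes passed, as did 78 of the 5678. *TPI1* had 0.984 and 0.947 late in replicate 1 and 1.10 and 1.12 in replicate 2, against 0.677 and 0.966 early in replicate 1 and 0.762 and 0.674 in replicate 2 (log2 change 0.40, SE 0.14, limma adjusted p = 0.146). *ENO1* followed, with 0.517 ± 0.0336 late and 0.394 ± 0.0827 early (SD, n = 4 each, log2 change 0.33, limma adjusted p = 0.231). The 3 genes with a lower estimate, *CDC19*, *GPM1* and *TDH2*, had log2 changes of -0.09, -0.07 and -0.05.

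**Figure D5:**
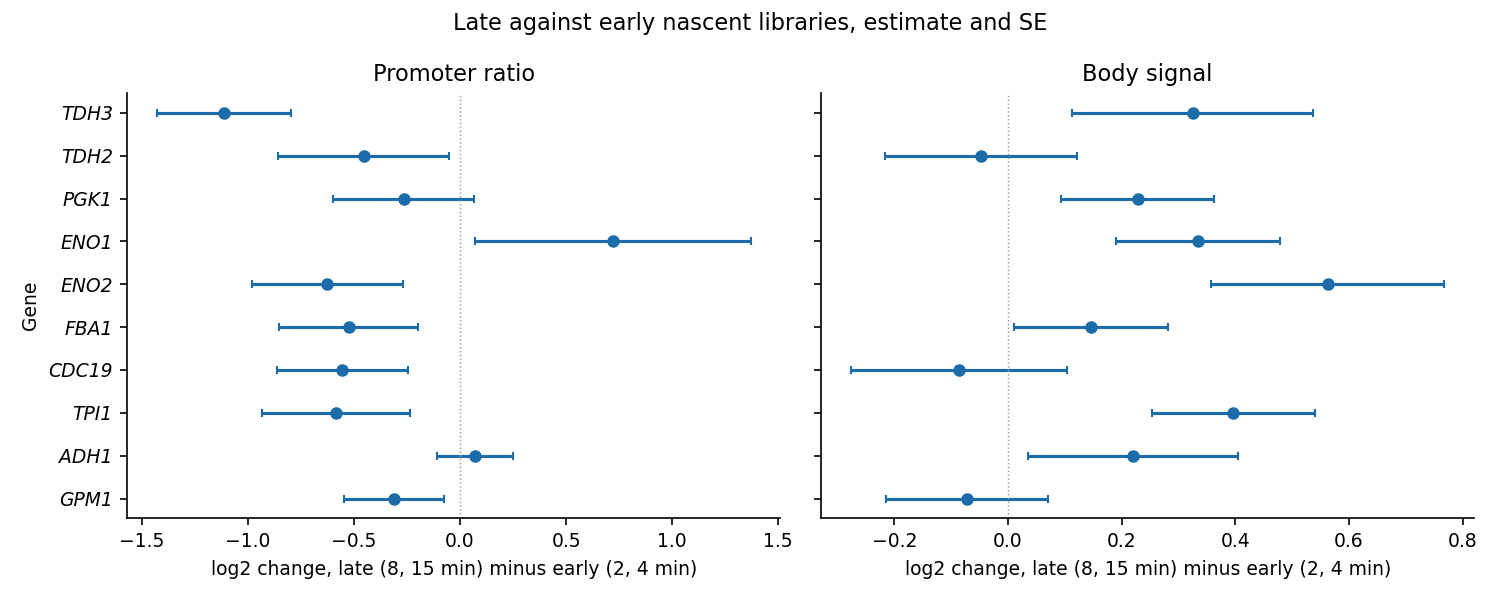
Estimated log2 change, late (8 and 15 min) minus early (2 and 4 min), with its SE as a bar (x axis), for promoter ratio on the left and body signal on the right, by gene (y axis). For the promoter ratio 8 estimates are negative, and for the body signal 7 are positive, and none passes an adjusted p of 0.05.

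The contrast at the positions of the average nucleosomes was low in these genes. Their median bulk signal was 0.571 at 50 bp, an average peak, and 1.22 at 130 bp, an average linker. It was highest at 170 bp (1.58). The positions of the average nucleosomes were thus not those of these genes, and a low contrast does not show an irregular array. The contrast, the signal at nucleosomes +1 to +4 of the average bulk profile (50, 210, 390 and 550 bp) over that of the linkers between them (130, 290 and 470 bp), had a median over the 10 genes of 0.945 in the mean of the nascent libraries and 0.910 in bulk, against 1.18 and 1.23 over other genes. It was 1.11 and 1.13 in the top 10% by polymerase occupancy and 1.06 both in nascent chromatin and in bulk in ribosomal protein genes. All 10 genes were below the median of other genes in bulk. *ADH1* was the highest, at 1.23 ± 0.309 (SD, n = 11) in nascent chromatin and 1.15 in bulk, and *CDC19* and *ENO2* were the lowest in nascent chromatin, at 0.883 ± 0.0946 and 0.882 ± 0.194, with 0.856 and 0.866 in bulk. Bulk lay above all 11 nascent libraries in *TDH2* only (bulk 1.13), against 25.4% of genes, and below all 11 in none, against 13.5%. Against replicate 2 alone bulk was also below in *PGK1* and *ENO1*, against 22.9% of genes. Late and early libraries had a median log2 change of -0.01, and the estimate furthest from 0 was that of *ADH1*, -0.33 with an SE of 0.19.

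The bodies gave no difference between the daughter strands that held across libraries. The log2 ratio of the leading over the lagging strand, as the tables name them, averaged from -0.34 in *FBA1* to 0.22 in *ENO1* over the 11 nascent libraries, with SDs of 0.35 to 0.73 between libraries. No gene kept its sign in all 11. The 0 min library, the shallowest, held the largest value in *GPM1* (2.29), *TPI1* (1.56), *TDH2* (1.51) and *PGK1* (0.77), and *GPM1* had the largest SD. The median size of this ratio was 0.13 over the 10 genes and 0.15 over other genes in nascent chromatin, and 0.07 and 0.16 in bulk.

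The 25 min library of replicate 2 held a different pattern, with signal over the promoters and little over the bodies. The promoter ratio was higher at 25 min than in all 12 other libraries in 9 of the 10 genes, as it was in 56.8% of all genes in 74.7% of the other genes in the top 10% by polymerase occupancy and in 83.2% of ribosomal protein genes. Its median over the 10 genes was 3.01, against 1.06 over other genes, 1.31 over the top 10% and 1.48 over ribosomal protein genes. This ratio carries the low bodies in its denominator. The promoter signal itself had a median of 1.35 over the 10 genes at 25 min, against 1.14 over other genes. That median was 1.06 over the top 10% and 0.887 over ribosomal protein genes. The promoter signal of *ENO2* was 1.05. *ENO2* had a ratio of 5.87 at 25 min, against 0.312 to 0.885 from 2 to 15 min of the same replicate, the largest change of the 10 (3.21 on the log2 scale). *FBA1* had 3.24 at 25 min, against 0.184 to 0.642 at the earlier times, *TDH2* 1.47, against 0.0628 to 0.244, and *PGK1* 3.16, against 0.407 to 0.587. The ratio of *ADH1*, high in each library, was 8.12 at 25 min, against 3.85 to 5.15. The median log2 change of the ratio was 2.22 over the 10 genes, against 0.73 over other genes, 1.43 over the top 10% and 1.78 over ribosomal protein genes. This library has no replicate, so the change has no test.

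Upstream the same library was high as far as the window reaches. From -500 to -300 bp *TDH3* had 4.28 at 25 min, against 0.171 to 0.691 from 2 to 15 min of replicate 2, and 0.589 in bulk. *TPI1* had 1.96 at 25 min, against 0.198 to 0.476, and *PGK1* 1.89, against 0.108 to 0.251. *ENO1* stayed the lowest there, with 0.184 at 25 min, against 0.0481 to 0.164. The median log2 change of this stretch was 2.02 over the 10 genes, -0.0046 over other genes and 0.19 over the top 10% by polymerase occupancy. Over the bodies the median signal at 25 min was 0.427 in the 10 genes, against 1.07 in other genes. Against the mean of 2 to 15 min of replicate 2, the body signal had a median log2 change of -0.61 over the 10 genes. This was -0.14 over other genes, -0.25 over the top 10% by polymerase occupancy and -0.32 over ribosomal protein genes. *TPI1* and *ADH1* stayed inside the range of the earlier values of the replicate.

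Other genes of glycolysis and fermentation from a list of 17 are given beside the 10. 15 of the 17 had values in both replicates, and *PDC1* and *PDC5* lie on chromosome 12. Bulk body signal was above all 11 nascent libraries in 4 of the 15, *PGI1*, *GPM2*, *GPM3* and *PDC6*, against 15.4% of genes. The median nascent over bulk ratio was 0.895, against 0.954 over genes other than the 10. *PGI1*, the phosphoglucose isomerase gene and the most occupied by polymerase of these 15, had a nascent mean of 0.873, against 1.32 in bulk. *TDH1*, a further copy of *TDH2* and *TDH3* with a listed polymerase occupancy of -0.0042, had 1.12, against 1.201 in bulk. *ADH2*, which glucose represses, had 0.888, against 0.880. In the late against early comparison 1 of the 15 passed, the glucokinase gene *GLK1*, for body signal, against 1.67% of 5678 genes. *GLK1* had 1.66 and 1.85 at 8 and 15 min in replicate 1 and 2.06 and 1.99 in replicate 2, against 0.867 and 1.05 at 2 and 4 min in replicate 1 and 0.852 and 1.11 in replicate 2 (log2 change 0.90, SE 0.14, limma adjusted p = 0.00522). Its groups did not overlap, and like *PGK1* it lies on chromosome 3. None of the regulator genes *GCR1*, *GCR2*, *RAP1* and *TYE7* passed for any of the 3 measures, against 0.018% to 1.67% of all genes. In each measure 0 of 4 had an unadjusted p below 0.05 by limma. Over all genes this was 453 of 5665, 1018 of 5678 and 447 of 5552. Bulk body signal was above all nascent libraries in 0 of 4, against 15.4% of genes. Counts over 4 genes are too small to set apart from these shares.

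By the shape of the bulk profile from -500 to 1000 bp, the genes most like the mean of the 10 were *ARO8*, *HCM1* and *MSP1*, with Pearson r of 0.76, 0.76 and 0.75 over 75, 75 and 73 bins. Each is classed as TFIID-dominated in the tables. Among the 10, *GPM1*, *TPI1*, *PGK1* and *CDC19* were most like the mean of the other 9 (r between 0.58 and 0.68), and *ADH1* and *TDH3* the least (r = -0.35 and -0.24). These are correlations across bins of 1 library and carry no test.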

How the data were processed

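MNase-digested chromatin of *rtt109Δ* cells was sequenced in 12 nascent libraries and 1 bulk library. The authors deposited, per gene, strand and 20 bp bin around the TSS, a coverage signal relative to the mean of the library. CASAVA 1.7.0 is named in the submitters' processing notes, and the aligner, genome build and the meaning of the letter R are not given in the sources used here. 37956 rows under 6 names that match no sample were not used, and bins with R or NaN (1.70% of cells) were left out.

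Strands were averaged. The promoter ratio is the mean of the 8 bins centred from -150 to -10 bp over the body (0 to 1000 bp). Late (8 and 15 min) and early (2 and 4 min) libraries, 4 each, were compared by limma 3.58.1 in R 4.3.3 on log2(value + 0.1), with Benjamini-Hochberg adjustment over all genes. Fold changes are thus understated where values are low. Tested on simulated data, a log2 change of 1 was called in 33.5% of changed genes for the promoter ratio, in 88.5% for body signal and in 93.0% for contrast. The simulated noise was drawn separately for each library, while the real libraries of a replicate are aliquots of 1 time course. These rates may thus not hold for the real libraries. Sequences are RefSeq R64, with 5699 of 6326 gene names matched.

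All 10 genes are described by name. The genes and lists were chosen with earlier results of these data known. The 3 genes most like them in the bulk profile were named by Pearson r. From the list of 17, *PGI1*, *TDH1* and *ADH2* were picked after their values had been seen. The same holds for the genes of that list named beside their neighbours. Alternatives were another pseudocount, filter, normalization, window, strand, set of time points, a replicate block and leaving out each library. Leaving out the 0 and 4 min libraries of replicate 1, the 0 to 500 bp body for bulk, and the settings of the neighbour and 25 min comparisons were added after seeing the data.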

Additional observations from a re-analysis of the deposited data

Results flagged for a closer look

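In 4 of the 60 groups of 4 late or early libraries tested, 1 library lay far from the other 3, where chance gives about 1 in 20. The promoter ratio of *GPM1* was 0.239 at 8 min of replicate 1, against 0.486, 0.497 and 0.515 in the other late libraries. The promoter ratio of *ADH1* was 5.15 at 2 min of replicate 2, against 3.62, 3.82 and 3.85 in the other early libraries. The body signal of *FBA1* was 0.859 at 8 min of replicate 1, against 0.726, 0.728 and 0.738 in the other late libraries. The nucleosome contrast of *GPM1* was 1.08 at 15 min of replicate 2, against 0.824, 0.830 and 0.839 in the other late libraries.

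The 25 min library did not enter the comparison of 8 and 15 with 2 and 4 min, only an alternative to it, and had a promoter ratio above all 12 other libraries, bulk included, in 9 of the 10 genes, against 56.8% of all genes.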

How the results depend on the processing

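Of 393 log2 changes of the 10 genes under alternatives, 365 kept their direction and side of the threshold, 27 reversed and 1 (*ENO2* body signal) passed newly. For the promoter ratio, 15 against 2 min gave 0.11 for *FBA1*, 0.14 for *CDC19*, 0.27 for *TPI1* and -0.070 for *ADH1*. With 8 to 25 against 0 to 4 min it was 0.38 for *PGK1*, 0.68 for *ENO2*, 0.081 for *FBA1* and 0.035 for *GPM1*, and on the opposite strand 0.60 for *TDH2*, 0.090 for *PGK1* and -0.42 for *ADH1*. For body signal, *TDH2* had 0.018 at 15 against 2 min, *FBA1* had -0.0037 with 8 to 25 against 0 to 4 min and -0.17 on the opposite strand, and *GPM1* had 0.0090 on the gene's strand. With 1 library or replicate left out, promoter ratios ranged from -0.065 to 0.21 for *ADH1*, -0.040 to 1.24 for *ENO1*, -1.37 to 0.12 for *ENO2*, -0.64 to 0.020 for *GPM1* and -0.79 to 0.26 for *PGK1*, and body signals from -0.089 to 0.53 for *ADH1*, -0.31 to 0.14 for *CDC19*, -0.13 to 0.0019 for *GPM1* and -0.29 to 0.19 for *TDH2*.

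Genes called for the promoter ratio (4) were 1 with a pseudocount of 1, 13 after quantile normalization, 0 at 15 against 2 min, 1 with 8 to 25 against 0 to 4 min, 1 with bins at 0 as missing, 2 and 0 on the gene's and the opposite strand, 2 with the promoter from -250 bp, and 0 to 5 with 1 library or replicate left out (1 to 5 with 1 library). For body signal (95) they were, in the same order, 214, 229, 202, 54, 20, 29 and 10, then 0 with no filter, 58 with a 500 bp body, 252 with the replicate block, and 2 to 114 with 1 library or replicate left out (19 to 114 with 1 library). For contrast (1) they were 2 after quantile normalization, 0 with the stricter filter, at 15 against 2 min, with bins at 0 as missing, on either strand and with nucleosomes +2 to +4, and 0 to 2 with 1 library or replicate left out. None of the 10 genes was called in any of these but *ENO2*, so that the number called was 0 to 1. Replicate number was not a block in the main fit, and r between deviations of libraries with the same number was -0.057 to 0.073. This does not show that replicate number is without effect, as the block changed the genes called for body signal from 95 to 252. The replicate block called 0 of the 10 genes.

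Genes with bulk outside the nascent range were, for the promoter ratio (1), 2 without the 0 min library or without 0 and 4 min of replicate 1 and 2 to 5 with a replicate left out, for body signal (8) 3 with bins at 0 as missing and 5 with a 500 bp body, and for contrast (1) 1 to 3 with a replicate left out. The cause was not tested. Promoter windows hold few reads at 0 and 4 min of replicate 1, and single bulk and 25 min libraries give no error.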
